A study of Mus musculus with 18 samples.

Results

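*Ccl19*, *Ccl21a*, *Ccl27a* and *Il11ra1*, which lie side by side on mouse chromosome 4 among duplicated copies of themselves, and *Ccr7* on chromosome 11, the receptor that binds the products of *Ccl19* and *Ccl21a*, were measured in the hypothalamus of the hypertensive strain BPH/2J and the normotensive strain BPN/3J. Every probeset whose platform annotation includes 1 of these 5 symbols was taken, which gave 8 of the 34760 probesets on the array. *Ccl19* had 4 probesets, *Ccl27a* had 2, *Ccl21a* and *Ccr7* had 1 each, and *Il11ra1* had 0. The genes were chosen by measured values: *Ccl19* and *Il11ra1* were selected on the adjusted fold difference (*aFD*), which compares the strain difference at ‘peak’ blood pressure (BP) with that at ‘trough’ BP, and the neighbours and the receptor were added with results of these data known. Values of *aFD*, and the separate strain and time differences that make it up, are therefore given as descriptions with a standard error (SE) and no test.

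At ‘peak’ BP 6 BPH/2J mice were set against 6 BPN/3J mice, all aged 26 weeks, and at ‘trough’ BP 3 BPH/2J mice against 3 BPN/3J mice, aged 18 weeks by the sample labels and 19 weeks by the series text. All were males under standard housing with no drug treatment, with 1 mouse on each array, so that p-values rest on the spread between animals. BPH/2J is an inbred strain bred for high BP and BPN/3J is its normotensive control strain, so a strain difference covers everything by which the inbred lines differ. Time of day and age cannot be told apart, because both change between ‘peak’ and ‘trough’. The labels give the tissue as hypothalamus, while by the methods the paraventricular and dorsomedial nuclei were dissected out. The strain field of the BPN/3J ‘trough’ mice reads BPH/2J, against their titles and their normotensive label, and the titles were followed.

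CCL19 and CCL21 are chemokines, small secreted proteins that guide migrating cells, and both act through CCR7 on T cells, B cells and mature dendritic cells. They are best known for drawing these cells into lymph nodes, where stromal and lymphatic endothelial cells make them, and for bringing T cells into the inflamed brain. CCL27 is a skin chemokine that acts through CCR10, and *Il11ra1* encodes the receptor chain that binds interleukin-11 and signals with gp130. In laboratory mice the region is duplicated, with several near-identical copies of *Ccl21* and *Ccl27* and pseudogene copies of *Ccl19*, and inbred strains are known to differ in it.

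The likeness of the copies is shown by the start regions of *Ccl21a* and *Ccl21d*, which share a probeset here. The sequences are from RefSeq on build GRCm38.p6, each running from upstream of the gene start into its first bases, 5′ to 3′ on the strand of the gene. The interval of *Ccl21a* is chr4:42773942-42774241 on the minus strand and that of *Ccl21d* is chr4:41903363-41903662 on the plus strand, and capitals mark the bases at which they differ.
Ccl21a: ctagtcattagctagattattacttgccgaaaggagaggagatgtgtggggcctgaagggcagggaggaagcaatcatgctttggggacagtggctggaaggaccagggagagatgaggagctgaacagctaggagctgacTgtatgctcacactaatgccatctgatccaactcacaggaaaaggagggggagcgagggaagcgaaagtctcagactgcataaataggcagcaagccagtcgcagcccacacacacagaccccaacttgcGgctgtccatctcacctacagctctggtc
Ccl21d: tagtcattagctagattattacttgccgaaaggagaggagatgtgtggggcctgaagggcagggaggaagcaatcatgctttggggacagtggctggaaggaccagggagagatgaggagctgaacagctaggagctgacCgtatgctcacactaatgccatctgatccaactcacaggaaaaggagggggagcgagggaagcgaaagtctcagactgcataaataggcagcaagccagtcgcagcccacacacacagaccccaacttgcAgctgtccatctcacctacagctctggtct
Over the 299 bases that align, 297 were identical and 2 differed, which is 99.3% identity. *Ccl21d* differed by 1 of 300 bases from each of the predicted copies *Gm13304* and *Gm10591*, which were identical to each other, and the start regions of *Ccl27b* and its predicted copy *Gm13306* were also identical over 300 bases. The *Ccl21* probeset carries 7 symbols (*Ccl21a*, *Ccl21b*, *Ccl21c*, *Ccl21d*, *Gm1987*, *Gm13304* and *Gm10591*), and both *Ccl27* probesets carry 5 (*Ccl27a*, *Ccl27b*, *Gm2506*, *Gm13306* and LOC100861978). These probesets are called *Ccl21* and *Ccl27* below, since the copies cannot be told apart on them.

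Values are the deposited log2 expression values, on which a difference of 1 is a doubling of the signal. Array medians lay at 6.17 to 6.32 in BPH/2J ‘peak’, 6.2 to 6.37 in BPN/3J ‘peak’, 6.27 to 6.33 in BPH/2J ‘trough’ and 6.29 to 6.42 in BPN/3J ‘trough’ mice. The arrays least like the rest of their group were those of BPN/3J ‘peak’ mice 11 and 10, with mean correlations of 0.9671 and 0.9785 with their group. As a check of the strain labels, 100 probesets outside the locus were chosen for their strain difference at ‘peak’ BP, and the BPH/2J ‘trough’ mice were nearer to the BPH/2J ‘peak’ mean for 92, 98 and 95 of them. The BPN/3J ‘trough’ mice, whose strain labels conflict, were nearer to the BPN/3J ‘peak’ mean for 77, 84 and 88.

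The strain difference over both times, weighted by the number of mice (0.667 for ‘peak’ and 0.333 for ‘trough’), does not use the contrast behind *aFD* and was tested with limma across all probesets. For the neighbours and the receptor, added with results of these data known, this weighting does not remove the selection. Of the 8 probesets, 2 were higher in BPH/2J mice, both of them *Ccl19*, against 1.08% of all probesets on the array, and 1, that of *Ccl21*, was lower in BPH/2J mice, against 0.926% of all probesets. The same 3 probesets had no overlap between the 9 BPH/2J and the 9 BPN/3J mice, with all BPH/2J mice above all BPN/3J mice for the pair of *Ccl19* probesets (0.325% of all probesets) and all BPH/2J mice below all BPN/3J mice for *Ccl21* (0.285% of all probesets). The other 5 probesets, those of *Ccl27* and *Ccr7* and the other pair of *Ccl19*, did not pass. Of the 8, 6 had a mean above the 40th percentile of all probesets, and those under it were *Ccl27* probeset 10504194 and *Ccr7*.

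*Ccl19* probeset 10512322, the one in the study's own gene table, read 10.18, 10.33 and 10.79 (lowest, median and highest of 6) in BPH/2J ‘peak’ mice, against 7.38, 8.51 and 8.74 in BPN/3J ‘peak’ mice. At ‘trough’ BP it read 9.74, 9.81 and 9.86 in BPH/2J mice, against 9.08, 8.41 and 7.94 in BPN/3J mice. Here and below, ‘trough’ values are those of the single mice in order of mouse number. Every BPH/2J mouse was above every BPN/3J mouse, and the BPN/3J mice were the more spread. The group means were 10.38 ± 0.21 in BPH/2J ‘peak’ and 8.27 ± 0.55 in BPN/3J ‘peak’ mice (SD, n = 6 each), and 9.8 ± 0.06 in BPH/2J ‘trough’ and 8.47 ± 0.58 in BPN/3J ‘trough’ mice (SD, n = 3 each). The strain difference over both times was 1.85 (SE 0.18, limma adjusted p = 5.27e-06, 95% interval 1.47 to 2.24), which is 3.61-fold, and 24 is its rank by size among all probesets. In the order of the group levels the BPH/2J ‘peak’ mice came first, at 10.18 or more, and the BPH/2J ‘trough’ mice next, at 9.86 or less. The BPN/3J groups came last and overlapped each other. The shift between the BPH/2J groups is part of the *aFD* on which this probeset was selected, so it is a description. How many probesets on the array separate these groups was not counted.

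*Ccl19* probeset 10512372 gave the same order of the strains. It read 8.52, 8.75 and 8.94 (lowest, median and highest) in BPH/2J ‘peak’ mice, against 6.35, 6.52 and 6.89 in BPN/3J ‘peak’ mice. At ‘trough’ BP it read 8.78, 8.47 and 8.76 in BPH/2J mice, against 7.7, 7.03 and 6.5 in BPN/3J mice. The 9 BPH/2J mice lay within 8.47 to 8.94 and the 9 BPN/3J mice within 6.35 to 7.7, with the ‘peak’ and ‘trough’ mice of each strain overlapping. The strain difference over both times was 1.99 (SE 0.13, limma adjusted p = 2.15e-08, 95% interval 1.72 to 2.25), which is 3.96-fold, rank 18 by size.

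**Figure D1:**
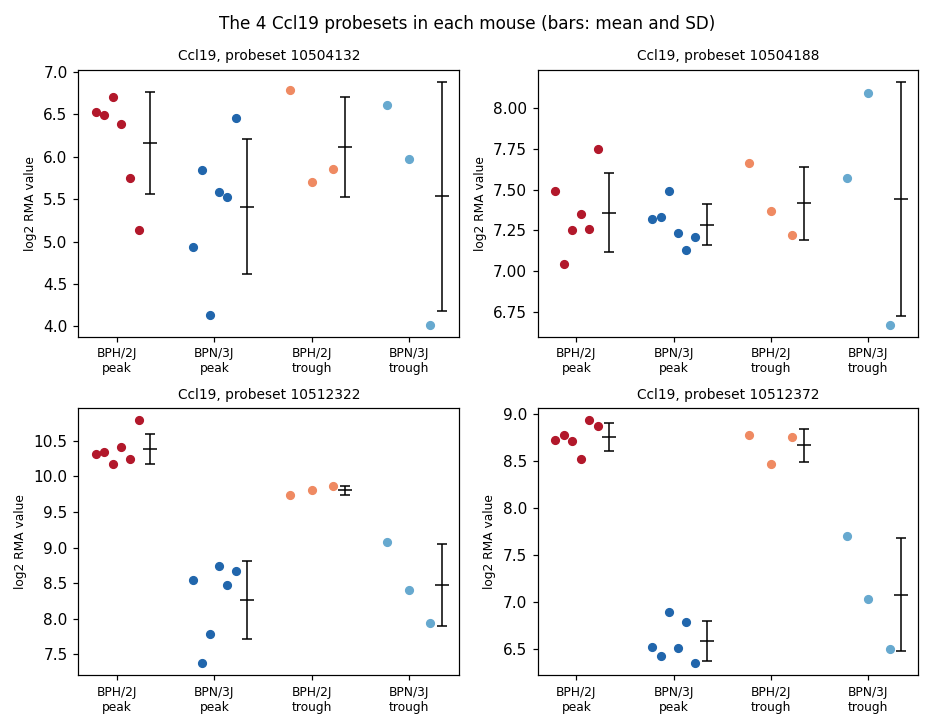
The 4 *Ccl19* probesets, with log2 expression on the vertical axis of each panel, 1 point per mouse in the 4 groups, and the mean and SD beside the points. For probesets 10512322 and 10512372 the BPH/2J mice lie at 9.74 to 10.79 and 8.47 to 8.94, above all BPN/3J mice, while for probesets 10504132 and 10504188 the strains overlap.

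The other pair of *Ccl19* probesets did not pass, although the annotation gives them the same symbol. Probeset 10504132 read 5.13, 6.43 and 6.7 (lowest, median and highest) in BPH/2J ‘peak’ mice, against 4.13, 5.55 and 6.45 in BPN/3J ‘peak’ mice. At ‘trough’ BP it read 6.79, 5.7 and 5.85 in BPH/2J mice, against 6.61, 5.97 and 4.02 in BPN/3J mice. The strains overlapped at both times and the spread within a group reached an SD of 1.35, in BPN/3J ‘trough’ mice. The strain difference was 0.7 (SE 0.35, limma adjusted p = 0.527, 95% interval -0.05 to 1.44). Probeset 10504188 read 7.04, 7.3 and 7.75 (lowest, median and highest) in BPH/2J ‘peak’ mice, against 7.13, 7.27 and 7.49 in BPN/3J ‘peak’ mice. Mouse by mouse it read 7.66, 7.37 and 7.22 in BPH/2J ‘trough’ mice, against 7.57, 8.09 and 6.67 in BPN/3J ‘trough’ mice. Its strain difference was 0.04 (SE 0.14, limma adjusted p = 0.962), with a 95% interval of -0.27 to 0.34 that lies below the intervals of the pair that passed. RefSeq lists 3 *Ccl19* genes within 1 Mb of *Ccl19*, 2 of them pseudogenes, and which copy each probeset reads was not tested, as probe sequences were not used here.

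The *Ccl21* probeset (10512377) ran the other way. It read 6.16, 6.24 and 6.35 (lowest, median and highest) in BPH/2J ‘peak’ mice, against 7.51, 7.66 and 7.8 in BPN/3J ‘peak’ mice. At ‘trough’ BP it read 6.47, 6.3 and 6.39 in BPH/2J mice, against 7.71, 7.25 and 7.73 in BPN/3J mice. The 9 BPH/2J mice lay within 6.16 to 6.47 and the 9 BPN/3J mice within 7.25 to 7.8, with no overlap. Means were 6.25 ± 0.07 in BPH/2J ‘peak’ and 7.65 ± 0.11 in BPN/3J ‘peak’ mice (SD, n = 6 each), and 6.38 ± 0.09 in BPH/2J ‘trough’ and 7.56 ± 0.27 in BPN/3J ‘trough’ mice (SD, n = 3 each), and within each strain the ‘peak’ and ‘trough’ mice overlapped. The strain difference over both times was -1.33 (SE 0.07, limma adjusted p = 9.83e-10, 95% interval -1.47 to -1.18), a 2.51-fold lower signal in BPH/2J mice, rank 67 by size. The *Ccl19* and *Ccl21* signals, both of CCR7 ligands, thus differed between the strains in opposite directions.

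Neither *Ccl27* probeset passed. Probeset 10512315 read 9.53, 9.7 and 9.72 (lowest, median and highest) in BPH/2J ‘peak’ mice, against 9.5, 9.62 and 9.73 in BPN/3J ‘peak’ mice. Mouse by mouse it read 9.43, 9.5 and 9.61 in BPH/2J ‘trough’ mice, against 9.63, 9.16 and 9.54 in BPN/3J ‘trough’ mice. Its strain difference was 0.05 (SE 0.06, limma adjusted p = 0.857), with a 95% interval of -0.08 to 0.19. Probeset 10504194, with a mean under the 40th percentile, had BPH/2J mice between 2.42 and 4.75 and BPN/3J mice between 2.68 and 4.43. Its strain difference had an SE of 0.3 and a 95% interval of -0.62 to 0.63 (limma adjusted p = 0.999). *Ccl27* lies among the same duplications as *Ccl21*, and no strain difference was found on either of its probesets.

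*Ccr7* (probeset 10390763) also had a mean under the 40th percentile. It read 5.15, 5.4 and 6.06 (lowest, median and highest) in BPH/2J ‘peak’ mice, against 5.06, 5.45 and 5.64 in BPN/3J ‘peak’ mice. At ‘trough’ BP it read 5.7, 5.71 and 5.43 in BPH/2J mice, against 6.25, 5.57 and 5.67 in BPN/3J mice. The 4 groups overlapped throughout. The strain difference was -0.02 (SE 0.13, limma adjusted p = 0.98, 95% interval -0.28 to 0.25), and the receptor did not pass.

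**Figure D2:**
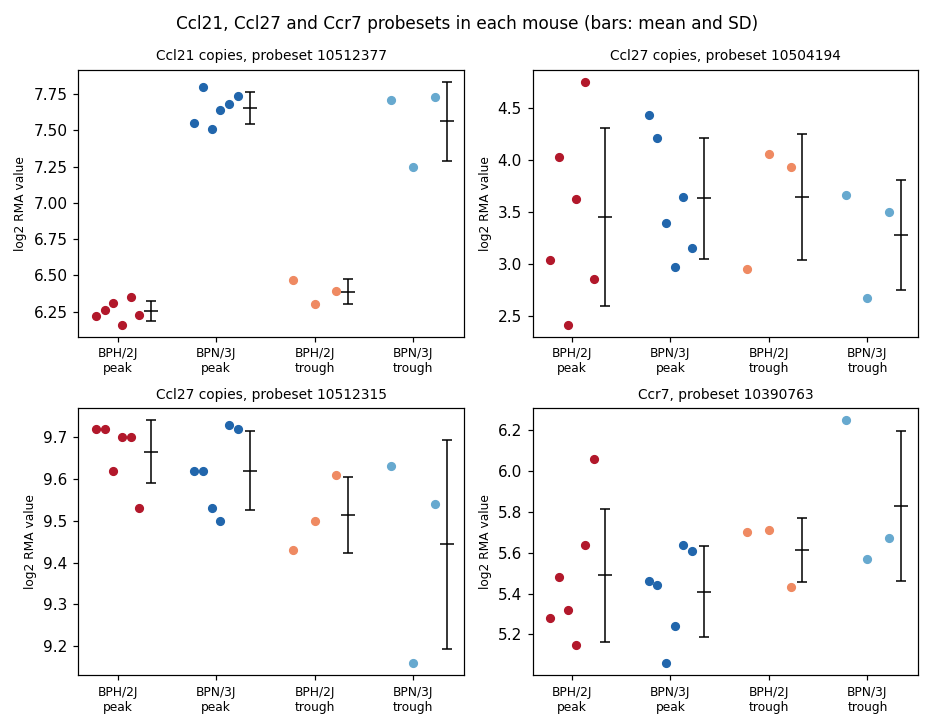
*Ccl21*, *Ccl27* and *Ccr7* probesets, with log2 expression on the vertical axis of each panel, 1 point per mouse in the 4 groups, and the mean and SD beside the points. The BPH/2J mice lie at 6.16 to 6.47 for *Ccl21*, below the BPN/3J mice at 7.25 to 7.8, and the strains overlap in the other panels.

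*Il11ra1* had no probeset by its symbol. The study's supplementary gene table names probeset 10504106 as *Il11ra1*, for which the annotation used here lists no gene, so its values stand apart from the 8. It read 5.64, 6.52 and 7.08 (lowest, median and highest) in BPH/2J ‘peak’ mice, against 5.44, 5.77 and 7.02 in BPN/3J ‘peak’ mice. Mouse by mouse it read 6.79, 6.71 and 5.76 in BPH/2J ‘trough’ mice, against 7.2, 6.9 and 6.0 in BPN/3J ‘trough’ mice. All groups overlapped, and the strain difference was 0.19 (SE 0.25, limma adjusted p = 0.865, 95% interval -0.33 to 0.72).

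None of the 8 probesets passed for the time difference, ‘peak’ minus ‘trough’ as the mean of the strains, while 16.1% of all probesets were higher and 16.9% were lower at ‘peak’ BP. At an unadjusted limma p under 0.05 there was 1 of the 8, *Ccl27* probeset 10512315, at 0.16 (SE 0.07, unadjusted p = 0.0277, adjusted p = 0.0731). *Ccr7* had -0.27 (SE 0.13, adjusted p = 0.126), *Ccl19* had 0.18 (SE 0.19, adjusted p = 0.481) on probeset 10512322 and -0.2 (SE 0.13, adjusted p = 0.254) on probeset 10512372, and *Ccl21* had -0.02 (SE 0.07, adjusted p = 0.842). The *Ccl19* probesets that passed for strain had time differences of opposite sign, neither of which passed.

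The strain difference is next given at each time, as the description behind *aFD*. For *Ccl19* probeset 10512322 it was 2.12 (SE 0.22, 4.33-fold) at ‘peak’ and 1.33 (SE 0.31, 2.52-fold) at ‘trough’ BP, and for probeset 10512372 it was 2.18 (SE 0.15, 4.53-fold) at ‘peak’ and 1.6 (SE 0.22, 3.02-fold) at ‘trough’ BP. For *Ccl21* it was -1.4 (SE 0.08) at ‘peak’ and -1.18 (SE 0.12) at ‘trough’ BP. For all 3 probesets the strain difference kept its direction at both times. Within strains, ‘peak’ minus ‘trough’ on probeset 10512322 was 0.58 (SE 0.27) in BPH/2J and -0.21 (SE 0.27) in BPN/3J mice. On probeset 10512372 it was 0.09 (SE 0.19) in BPH/2J and -0.5 (SE 0.19) in BPN/3J mice, so that the larger shift lay in BPH/2J mice on probeset 10512322 and in BPN/3J mice on probeset 10512372.

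**Figure D3:**
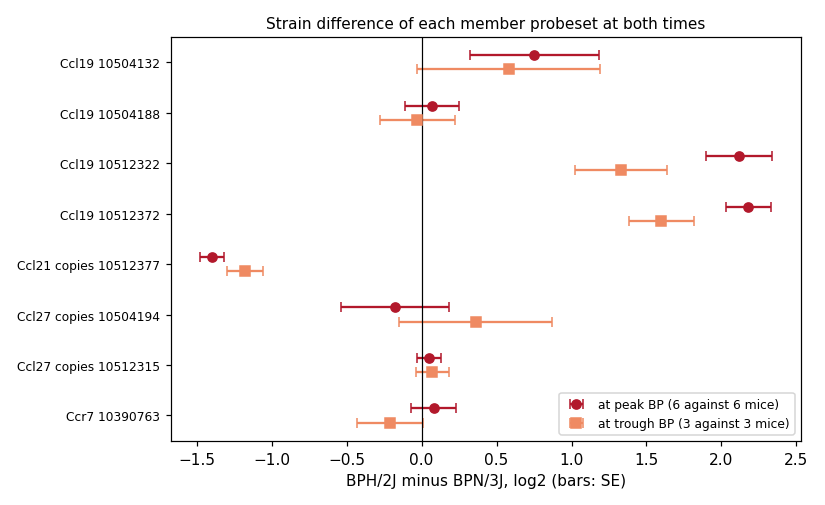
Log2 difference of BPH/2J minus BPN/3J mice (horizontal axis, bars are the SE) for each of the 8 probesets, with circles for ‘peak’ BP (6 against 6 mice) and squares for ‘trough’ BP (3 against 3 mice). *Ccl19* probesets 10512322 and 10512372 lie at 1.33 or more and *Ccl21* at -1.18 or less at both times, and the others lie nearer to 0.

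The difference between these strain differences, ‘peak’ minus ‘trough’, gives the *aFD*, its fold value with a sign, on which genes were selected at 1.5 or more in size. It was 0.78 (SE 0.39, *aFD* 1.72) for *Ccl19* probeset 10512322, 0.59 (SE 0.27, *aFD* 1.5) for probeset 10512372, 0.17 (SE 0.75, *aFD* 1.13) for probeset 10504132 and 0.1 (SE 0.31, *aFD* 1.07) for probeset 10504188. *Ccl21* had -0.22 (SE 0.14, *aFD* -1.16) and *Ccr7* had 0.29 (SE 0.27, *aFD* 1.22). The *Ccl27* probesets had *aFD* values of -1.45 (10504194) and -1.02 (10512315), and probeset 10504106 of the *Il11ra1* entry had 1.64. Thus 2 of the 8 reached 1.5 in size, against 5.93% of all probesets, with probeset 10512372 at 1.5 just inside and probeset 10504194 at -1.45 just outside. With BPN/3J ‘trough’ mouse 1 left out, both of these *Ccl19* probesets were under 1.5, with differences of 0.48 (10512322) and 0.27 (10512372), and *Ccl27* probeset 10504194 (-0.73) alone was then past it. Both were also under it with group medians in place of means (0.42 and 0.51), and without BPN/3J ‘trough’ mouse 4 the count was 4 of 8. BPN/3J ‘trough’ mouse 1 was the highest BPN/3J mouse on both *Ccl19* probesets, at 9.08 and 7.7.

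Across the 18 mice, the pair of *Ccl19* probesets that passed had a Pearson r of 0.92 with each other, and -0.91 (10512322) and -0.95 (10512372) with *Ccl21*. Taken as deviations from the group means, the values were 0.38 between the *Ccl19* probesets, and -0.09 and 0.0 with *Ccl21*. The correlations over all mice thus follow the split between the strains, and this pair of *Ccl19* probesets showed little joint variation with *Ccl21* among mice of a group. The *Ccl19* probesets that did not pass had r of -0.59 (10504188) and 0.16 (10504132) with *Ccl21* within groups. *Ccr7* had r of 0.13 with *Ccl19* probeset 10512322 over all mice and 0.48 within groups, and 0.08 and 0.43 with *Ccl21*. These values are descriptions, since probesets of an array share its RNA and normalization.

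The neighbourhood was next described over all RefSeq genes within 1 Mb of *Ccl19* to either side, of which 48 of 98 had a probeset, with 48 probesets in all. Besides the 7 probesets of *Ccl19*, *Ccl21* and *Ccl27*, the window held 5 probesets that carry several predicted gene symbols each and 36 of other genes. Of the 36, limma called 0 higher and 1 lower in BPH/2J mice (0 higher and 3 lower at an unadjusted p under 0.05), with strain differences between -0.5 and 0.18 and a median of -0.03. On the whole array 1.08% of probesets passed as higher and 0.926% as lower, and 3587 of 34760 had an unadjusted p under 0.05. Beside these shares, 1 passing of 36 does not set the other genes apart from the rest of the array. The gene that passed was *Galt*, which encodes an enzyme of galactose metabolism, at -0.5 (SE 0.05, limma adjusted p = 1.82e-05). All BPH/2J mice lay below all BPN/3J mice on its probeset, as for 0.285% of all probesets. In gene order *Galt* was the only gene of the 36 on its side of *Ccl19*. The probesets shared by several copies were also placed there, each once, at the first of its copies in gene order. Their other copies can lie elsewhere, as the intervals of *Ccl21a* and *Ccl21d* given above lie apart. All the others of the 36 lay on the other side, so the flank of *Galt* was read by no further single gene. Of the 5 probesets of predicted genes, 2 were higher in BPH/2J mice, probeset 10504148 at 0.82 (SE 0.14, adjusted p = 0.00318) and probeset 10504178 at 0.79 (SE 0.13, adjusted p = 0.00123), and 0 were lower. The probesets of the window that passed with a larger strain difference than *Galt* were thus those of *Ccl19*, *Ccl21* and the predicted genes. With these arrays a difference between the strains in copy number, in the sequence under the probes or in transcript level per copy cannot be told apart.

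**Figure D4:**
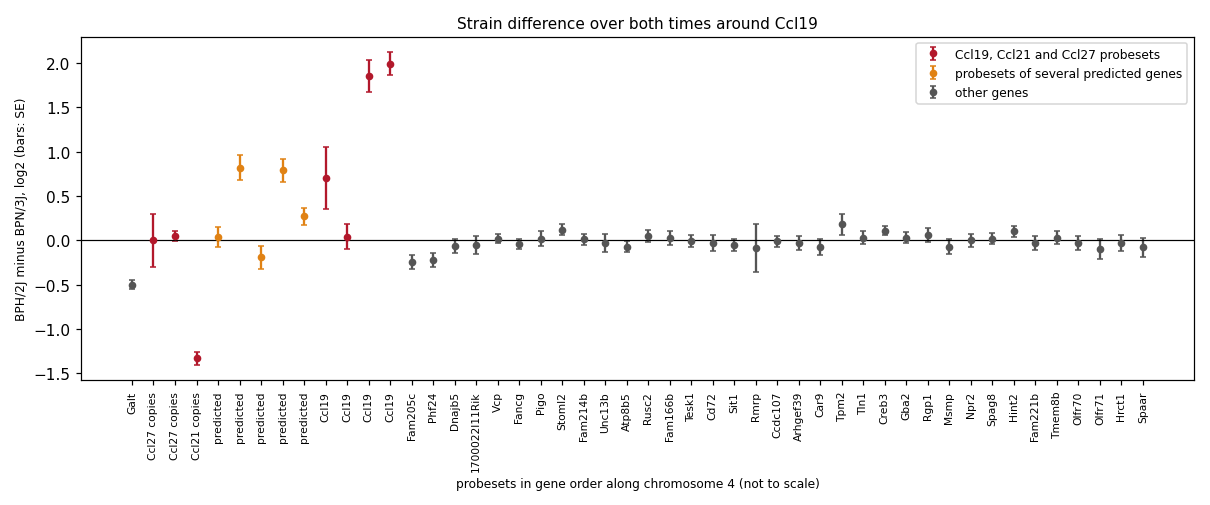
Log2 strain difference over both times, BPH/2J minus BPN/3J (vertical axis, bars are the SE), for the 48 probesets in the window around *Ccl19*, in gene order along chromosome 4 and not to scale. A probeset shared by several genes is placed once, at the first of them in gene order. *Ccl19* probesets reach 1.85 and 1.99 and *Ccl21* -1.33, probesets of several predicted genes reach 0.82, and the other genes lie between -0.5 and 0.18.

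By time, 3 of the 36 other genes of the window were higher and 18 were lower at ‘peak’ BP, with a median of -0.22, against 16.1% higher, 16.9% lower and a median of -0.02 over all probesets.

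The other genes of the CCR7 axis with a single-gene probeset did not pass for strain. The list held 10 symbols, of which 5 had a probeset with a single gene, and *Ccl19* alone of these passed for strain (the *Ccl21* probeset, shared by several genes, is left out of this count). *Ccl19* was read here from its brightest probeset, 10512322. Of all probesets 1.08% passed as higher and 0.926% as lower for strain, so the genes that did not pass are not set apart from the array. *Ackr4*, the scavenging receptor for CCL19 and CCL21, had 0.0 (SE 0.07, adjusted p = 0.996), *Cxcr3*, a receptor that binds CCL21 in mice, had -0.08 (SE 0.07, adjusted p = 0.793), and *Ackr2*, a scavenger of inflammatory chemokines, had 0.02 (SE 0.07, adjusted p = 0.95). By time, *Cxcr3* (-0.4, SE 0.08, adjusted p = 0.000967) and *Ackr2* (-0.31, SE 0.08, adjusted p = 0.00556) were lower at ‘peak’ BP, and *Ackr4* had -0.12 (adjusted p = 0.202). This was 0 higher and 2 lower of the 5, against 16.1% of all probesets higher and 16.9% lower. The larger shifts lay in BPN/3J mice. *Cxcr3* means at ‘peak’ and ‘trough’ BP were 5.68 and 6.35 in BPN/3J and 5.78 and 5.91 in BPH/2J mice. Those of *Ackr2* were 5.94 and 6.46 in BPN/3J and 6.1 and 6.21 in BPH/2J mice. *Ackr4*, with group means of 4.63 to 4.91, read below *Ccr7* and so also under the 40th percentile.

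In the CCL27 and interleukin-11 axis, 9 of 13 genes had a probeset with a single gene (the *Ccl27* probesets, shared by several genes, are left out of this count). Against 1.08% of all probesets passing as higher and 0.926% as lower in BPH/2J mice, 1 of the 9 passed for strain. This was *Ccl28*, a mucosal chemokine that shares the receptor CCR10 with CCL27, at -0.81 (SE 0.07, adjusted p = 1.65e-06) in BPH/2J against BPN/3J mice. The receptors had 0.03 (*Ccr10*, SE 0.09, adjusted p = 0.944) and 0.02 (*Ccr3*, SE 0.08, adjusted p = 0.973), and *Il11* itself had -0.07 (SE 0.07, adjusted p = 0.827). *Il6st*, which encodes gp130, had 0.09 (SE 0.09, adjusted p = 0.834), and *Stat3*, the transcription factor below it, had 0.0. By time, *Ccl28* was higher at ‘peak’ BP (0.28, SE 0.08, adjusted p = 0.00988), and *Il6st* (-0.32, SE 0.1, adjusted p = 0.024), the kinase gene *Tyk2* (-0.32, SE 0.1, adjusted p = 0.0172) and *Ccr3* (-0.25, SE 0.09, adjusted p = 0.0335) were lower. This was 1 higher and 3 lower of the 9, against 16.1% of all probesets higher and 16.9% lower. Counts this small do not set the axis apart from the array.

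**Figure D5:**
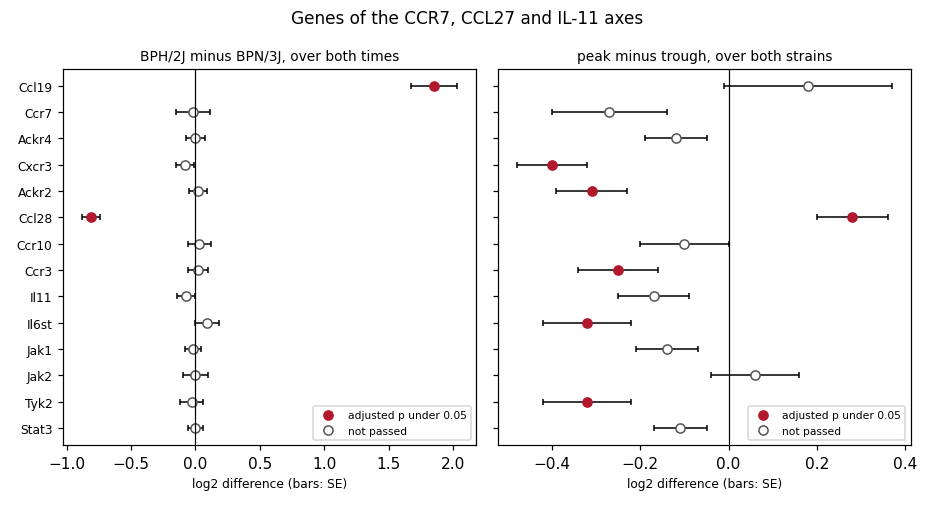
Genes of the CCR7, CCL27 and interleukin-11 axes (rows), with the log2 difference of BPH/2J minus BPN/3J in the left panel and of ‘peak’ minus ‘trough’ in the right panel, bars giving the SE and filled circles an adjusted p under 0.05. *Ccl19* at 1.85 and *Ccl28* at -0.81 passed for strain, and 6 genes passed for time, *Ccl28* higher and the others lower at ‘peak’ BP.

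Of the lymphoid chemokines and the lymphotoxin pathway, which in lymph nodes drives *Ccl19* and *Ccl21* in stromal cells, 15 of 17 genes were measured and 0 passed for strain in limma in either direction (1 at an unadjusted p under 0.05), with a median of -0.06. Of all probesets 1.08% passed as higher and 0.926% as lower for strain. By time 0 of the 15 were higher and 5 lower at ‘peak’ BP, against 16.1% of all probesets higher and 16.9% lower. The lower genes were led by *Madcam1* (-0.46, adjusted p = 0.000937), which encodes an adhesion molecule for lymphocytes. Of the 32 other chemokines, all measured, *Ccl17* alone passed for strain, lower in BPH/2J mice at -0.29 (SE 0.06, adjusted p = 0.0161), and of 14 measured other chemokine receptors 0 passed (2 at an unadjusted p under 0.05). By time 2 of the 32 other chemokines were higher, *Ccl25* (0.58, adjusted p = 0.00473) and *Ccl17* (0.3, adjusted p = 0.00301), and 9 were lower, led by *Ccl20* (-0.56, adjusted p = 0.00152) and *Cxcl15* (-0.41, adjusted p = 0.00301). Of the 14 other receptors 0 were higher and 2 lower, among them *Cxcr1* (-0.41, adjusted p = 0.00476).

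Markers of the cells that carry CCR7 or make its ligands were set beside *Ccl19* and *Ccl21*, since in a tissue extract the number of cells of a type and the RNA per cell cannot be told apart. For strain, 0 of 13 measured T cell markers (median -0.06), 0 of 8 B cell markers (-0.01), 0 of 16 dendritic cell markers (-0.03), 0 of 15 meningeal fibroblast and lymphoid stroma markers (-0.01) and 0 of 8 lymphatic endothelial markers (0.02) passed in limma. At an unadjusted p under 0.05 there were 2 T cell markers, 1 dendritic cell marker and 0 of the other lists. Over all probesets 1.08% passed as higher and 0.926% as lower in BPH/2J mice, and 3587 of 34760 had an unadjusted p under 0.05. With shares this low, 0 passing in lists of 8 to 16 genes does not set them apart from the rest of the array. The mean level of the T cell list ranged over 5.2 to 5.49 in BPH/2J ‘peak’, 5.24 to 5.37 in BPN/3J ‘peak’, 5.31 to 5.47 in BPH/2J ‘trough’ and 5.34 to 5.67 in BPN/3J ‘trough’ mice. That of the stroma list ranged over 7.4 to 8.14 in BPH/2J ‘peak’, 7.18 to 8.35 in BPN/3J ‘peak’, 7.84 to 8.08 in BPH/2J ‘trough’ and 7.76 to 7.87 in BPN/3J ‘trough’ mice. At ‘peak’ BP all 5 lists overlapped between the strains, unlike *Ccl19* and *Ccl21*. At ‘trough’ BP the B cell list ranged over 4.84 to 4.93 in BPH/2J mice, below 4.94 to 5.28 in BPN/3J mice, and the dendritic cell list over 6.06 to 6.11 in BPH/2J mice, below 6.13 to 6.35 in BPN/3J mice, while the other 3 lists overlapped. By time, 4 T cell, 2 B cell, 4 dendritic cell, 4 stroma and 5 lymphatic endothelial markers were lower at ‘peak’ BP, and 1 dendritic cell and 1 stroma marker were higher, with list medians of -0.2, -0.24, -0.16, -0.48 and -0.22. Over all probesets 16.9% were lower and 16.1% higher at ‘peak’ BP, with a median of -0.02. The part of these cells in the results was not tested.

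Single markers of other cells did pass for strain. They were *C1qc* of 12 measured microglia markers (-0.49, adjusted p = 0.000593), *Slco1a4*, a transporter of brain endothelium, of 12 blood endothelial markers (0.85, adjusted p = 3.3e-05), and the neuropeptide gene *Gal* of 17 hypothalamus markers (0.68, adjusted p = 0.034). At an unadjusted p under 0.05 there were 3 microglia, 1 blood endothelial and 5 hypothalamus markers, against 3587 of all 34760 probesets. Of these microglia markers *C1qc* was lower in BPH/2J mice and the others, such as *Csf1r* (0.22), were higher. The list medians for strain were 0.03 (microglia), 0.04 (blood endothelial) and 0.11 (hypothalamus), against -0.01 over all probesets. By time, 2 microglia markers were higher and 2 lower at ‘peak’ BP, 1 blood endothelial marker was higher and 6 were lower, and 3 hypothalamus markers were higher and 2 lower. The shares over all probesets were 16.1% higher and 16.9% lower. In the difference behind *aFD* the hypothalamus list had a median of 0.26, against -0.01 over all probesets. Medians of the lists described here ran from -0.24 (stroma) to 0.4 (CCR7 axis, which holds *Ccl19*). The neuropeptide gene *Oxt* had 1.75, above the 0.78 of *Ccl19* probeset 10512322. The study selected *Oxt* and other genes of the hypothalamus list on *aFD*, so these values are descriptions and no test. The blood endothelial list ranged over 8.19 to 8.26 in BPH/2J ‘trough’ mice, above 7.94 to 8.0 in BPN/3J ‘trough’ mice, but overlapped at ‘peak’ BP, at 7.87 to 8.09 in BPH/2J and 7.8 to 8.2 in BPN/3J mice. Choroid plexus markers varied widely among mice of every group, over 6.03 to 8.15 in BPH/2J ‘peak’, 6.0 to 8.49 in BPN/3J ‘peak’, 6.3 to 8.06 in BPH/2J ‘trough’ and 6.47 to 7.87 in BPN/3J ‘trough’ mice. Of 9 measured choroid plexus markers 0 passed for strain in limma (1 at an unadjusted p under 0.05, median -0.31), and their part in the results on *Ccl19* and *Ccl21* was not tested.

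The genes most like *Ccl19* probeset 10512322 over the 18 mice, among 20334 candidate probesets with a single named gene, were *Slc25a31* (r = 0.93, strain difference 1.4), *Antkmt* (0.91, 0.83), *Cthrc1* (0.9, 2.55), *Gdpd3* (0.9, 3.42) and *Rdh13* (0.9, 0.41). Within groups their r with *Ccl19* lay between -0.14 (*Gdpd3*) and 0.39 (*Rdh13*). Those most like *Ccl21* were *Aldh7a1* (0.97), *Tmem267* (0.97), *Adgre5* (0.96), *Endou* (0.96) and *Ifngr2* (0.95), all with strain differences below 0, at -0.7, -1.75, -1.25, -1.39 and -0.88, and with r between -0.09 and 0.24 within groups. The likeness to *Ccl19* and *Ccl21* was thus a likeness in the strain difference. The genes most like *Ccl27* probeset 10512315 were led by *Gar1* (r = 0.88, 0.87 within groups) and those most like *Ccr7* by *Aunip* (0.89, 0.86 within groups). The other 4 genes most like *Ccl27* had r of 0.8 to 0.83, and 0.69 to 0.74 within groups.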

How the data were processed

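Total hypothalamic RNA of 18 male mice, 1 mouse per array, was measured on Affymetrix Mouse Gene 1.0 ST arrays. The authors deposited log2 expression values of 34760 probesets after robust multi-array analysis (RMA), with no missing values; RMA and limma are named in the submitters' processing notes, and neither versions nor an annotation build is given in the sources used here. Platform annotation gave 21640 probesets 1 gene symbol and 1321 several, and did not list a gene for 11799. Arrays have no read depth, and precision is limited by their number.

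A linear model with 1 mean per group was fitted to the deposited log2 values of all probesets with limma 3.58.1 (R 4.3.3, lmFit and eBayes, 14 residual and 2.94 prior degrees of freedom), with Benjamini-Hochberg adjustment over all probesets and a threshold of 0.05. The strain difference weighted ‘peak’ and ‘trough’ by the number of mice, which makes it independent of the contrast behind *aFD*. Scripts were tested on simulated data. The members and lists were chosen with earlier results of these data known. All probesets of the members were named; of the lists, the genes of the CCR7, CCL27 and interleukin-11 axes whatever they did, and of the rest the genes that passed, at most 8 per comparison over all pathway lists by the smallest p, and up to 2 per marker list; for likeness, the 5 highest correlations. Each list gene was read from its brightest probeset with a single symbol.

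Alternatives were another normalization (quantile, or centring on the median), leaving out dim probesets (under the 40th percentile), array weights, another variance prior, other time weights, an additive model, subsets of arrays, group medians, member probesets with 1 symbol only, mouse number as a block, each array left out in turn and, chosen after seeing the data, leaving out the 2 arrays least correlated with their group. Promoters were aligned with Biopython 1.88.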

Additional observations from a re-analysis of the deposited data

Results flagged for a closer look

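Over 18 groups of mice tested for a value that stands apart (the 8 probesets and that of the *Il11ra1* entry, at ‘peak’ BP in each strain), 1 did. BPN/3J ‘peak’ mouse 11 was highest on probeset 10504106, at 7.02, against 5.44 to 5.95 in the other BPN/3J ‘peak’ mice. Chance flags about 1 in 20 groups. The array of this mouse was also the least correlated with its group.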

How the results depend on the processing

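The strain calls on *Ccl19* probesets 10512322 and 10512372 and on *Ccl21* held in every alternative that included them but the fit to the ‘trough’ arrays alone, where 0 of the 8 probesets and 67 of all probesets passed and the differences were 1.33, 1.6 and -1.18. That fit has 3 arrays per strain. It and the fits to ‘peak’ or single-strain arrays use parts of the contrast behind *aFD*, so their calls are no independent test. With probesets of 1 symbol only, which leaves out *Ccl21* and *Ccl27*, 2 passed. In the other alternatives, leaving out each mouse in turn included, the 3 differences ranged over 1.72 to 2.12, 1.89 to 2.18 and -1.4 to -1.24 and all passed, and leaving out the arrays of BPN/3J ‘peak’ mice 10 and 11 gave 1.96, 1.98 and -1.31. With mouse number and time as a replicate block, over the 12 arrays whose numbers both strains share, they were 1.81 (adjusted p = 0.012), 1.9 (adjusted p = 0.00152) and -1.25 (adjusted p = 0.00115). The block changed no call on strain. Deviations of mice with the same number correlated between -0.296 and 0.194. Mice of unlike number were not set beside them, so whether the numbers pair the mice is not settled. The time difference could not be fitted with the block, in which time does not vary.

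The count of probesets passing for time, 0 of 8, was 1 with median centring, 3 with array weights, 1 in the BPH/2J arrays alone and 0 to 1 when each mouse was left out (1 without mouse 9 of BPH/2J at ‘peak’ BP, or mouse 1 or 4 of BPN/3J at ‘trough’ BP). The probesets were *Ccl27* 10512315 with median centring (0.24), array weights (0.28) or without BPN/3J ‘trough’ mouse 1 (0.21), *Ccl19* 10504188 (-0.39) and *Ccr7* (-0.25) with array weights, *Ccl19* 10512322 in BPH/2J arrays (0.58, part of the contrast behind *aFD*), *Ccr7* without BPH/2J ‘peak’ mouse 9 (-0.33) and *Ccl19* 10512372 without BPN/3J ‘trough’ mouse 4 (-0.35). The count with an *aFD* of 1.5 or more, 2 of 8, was 1 with median centring, 4 with array weights, 3 with the replicate block and 1 to 4 when each mouse was left out. With group medians it was again 2, but of other probesets: *Ccl19* 10512322 (0.42) and 10512372 (0.51) fell under the threshold, and *Ccl19* 10504132 (1.0) and *Ccl27* 10504194 (-0.61) were past it. At ‘peak’ BP it was 1 without mouse 9 of BPH/2J or mouse 5 or 6 of BPN/3J, at ‘trough’ BP it was 1 without mouse 2 of BPH/2J or mouse 1 of BPN/3J (for the last, *Ccl27* 10504194 was the probeset left), and it was 4 without BPN/3J ‘trough’ mouse 4. The cause of these changes was not tested.

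Differences that did not pass changed sign as follows. For strain, *Ccl19* 10504188 had -0.18 with array weights, -0.03 in ‘trough’ arrays, -0.21 with the block, 0.0 without the 2 least correlated arrays and -0.09 to 0.15 when each mouse was left out. *Ccl27* 10504194 had -0.18 in ‘peak’ arrays, -0.08 without the 2 least correlated arrays and -0.17 to 0.14 when each mouse was left out. *Ccr7* had 0.05 with quantile normalization, 0.03 with median centring, 0.02 with array weights, 0.08 in ‘peak’ arrays, 0.06 without the 2 least correlated arrays and -0.09 to 0.05 when each mouse was left out. For time, *Ccl19* 10504132 had 0.01 with quantile normalization, 0.04 with median centring, 0.05 in BPH/2J arrays and -0.42 to 0.23 when each mouse was left out, and *Ccl19* 10504188 had -0.3 to 0.05 in the last. *Ccl19* 10512322 had -0.21 in BPN/3J arrays and *Ccl19* 10512372 had 0.09 in BPH/2J arrays. *Ccl21* had 0.06 with median centring, 0.11 with array weights, 0.09 in BPN/3J arrays and -0.1 to 0.02 when each mouse was left out, and *Ccl27* 10504194 had -0.19 in BPH/2J arrays and -0.09 to 0.18 when each mouse was left out.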
